A study of Rattus norvegicus with 8 samples.

Results

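Epidermal growth factor (EGF)-like ligands are made as membrane-anchored precursors, are cut loose by proteases and bind ErbB receptors, which are tyrosine kinases. In the ovarian follicle, luteinising hormone induces amphiregulin, epiregulin and betacellulin in mural granulosa cells. The shed ligands then act through the EGF receptor on cumulus cells, where they set off matrix expansion and the resumption of oocyte meiosis. The family was followed here through 10 genes, the ligand genes Areg, Ereg, Btc, Hbegf, Tgfa, Egf and Nrg1 and the receptor genes Egfr, Erbb2 and Erbb3. They were chosen by gene name among the non-control probes of the array and had 14 of its 30350 usable probes. These are 10 of 26204 names on the array.

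Whole ovaries came from female rats injected under the skin at 26 days of age and killed 48 h later, at 28 days. The treated group received 50 IU of pregnant mare serum gonadotropin (PMSG), a hormone that acts on the follicle-stimulating hormone receptor and in part on that for luteinising hormone, dissolved in 0.2 ml of a buffered albumin solution. The control group received 0.2 ml of the solution without hormone. There were 4 arrays of each label, and neither the strain nor the number of animals behind each array was given, so p-values measure only the spread between these samples. A level is the log2 signal minus the 75th percentile of its array, so that 0 is the signal at that percentile, and a difference is the mean level in arrays labelled PMSG minus that in arrays labelled control. The 75th percentile itself was a signal of 1002 to 1103 on control-labelled arrays and 768.9 to 1082 on PMSG-labelled arrays, with 80.8% to 84.6% of probes well above background. Directions follow the labels. Lhcgr, the luteinising hormone receptor gene generally known to be raised by gonadotropin, differed by -1.93 (SE 0.27, limma adjusted p = 0.00114) and was thus lower in arrays labelled PMSG. The steroidogenic genes Star (-2.75, limma adjusted p = 0.00541) and Cyp11a1 (-3.36, limma adjusted p = 2.32e-04) were lower too. These run against the direction generally known for gonadotropin, so the arrays are called by their labels throughout. Whether labels were exchanged was not tested. With bulk tissue, fewer cells of a type and less RNA per cell cannot be told apart.

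The probes carry the identity of each measurement, and those on which the results turn are shown 5′ to 3′ in lower case. Each is 60 bases long. The Ereg, Nrg1 and Btc probes and the dim Erbb2 probe are given whole, and the first 30 bases are given for the others. The Ereg probe spans 999 bases of the chromosome, so its bases do not lie next to each other in the genome.

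Areg, first 30 bases: aagtgacgaatcggtccttctttcagcgaa

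Ereg: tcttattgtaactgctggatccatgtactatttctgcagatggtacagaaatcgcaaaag

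Btc: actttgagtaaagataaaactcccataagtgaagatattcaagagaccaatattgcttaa

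Nrg1: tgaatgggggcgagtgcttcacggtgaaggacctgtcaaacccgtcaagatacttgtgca

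Egfr, first 30 bases: tggtcttcgaactgtgaagattccactgaa

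Erbb2, brightest probe, first 30 bases: gcactttcatccagaccagtctttgtacag

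Erbb2, dim probe: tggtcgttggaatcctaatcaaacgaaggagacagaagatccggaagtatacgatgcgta

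Erbb3, first 30 bases: aggcttttccccaaggctaatgcccagaga

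Of the 10 genes, 9 were tested and Btc was not, because its probe reached well above background on 0 of 8 arrays. Using limma and Benjamini-Hochberg adjustment over all probes, 6 of these 9 differed between the labels at an adjusted p under 0.05, against 34.5% of all 21922 genes tested. Areg, Ereg and Egfr fell in arrays labelled PMSG, where 16.5% of all genes were called lower. Nrg1, Erbb2 and Erbb3 rose, where 18.0% of all genes were called higher. Differences of -2 or lower were called in 0.862% of all genes, and Areg and Ereg were among them. Ereg could pass only through the label in which it is bright. Of the 8 members above background on all arrays, 5 differed. With the same requirement, 8476 of 22943 probes were called. The groups did not overlap for 5 of the 9 tested members, against 37.0% of all genes, and 3 of these 5 (Areg, Ereg and Egfr) were lower in PMSG, against 18.5% of all genes. The median difference was 0.03 over the 6 tested ligands and 1.11 over the 3 receptors, beside 0.12 over all genes tested.

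**Figure D1:**
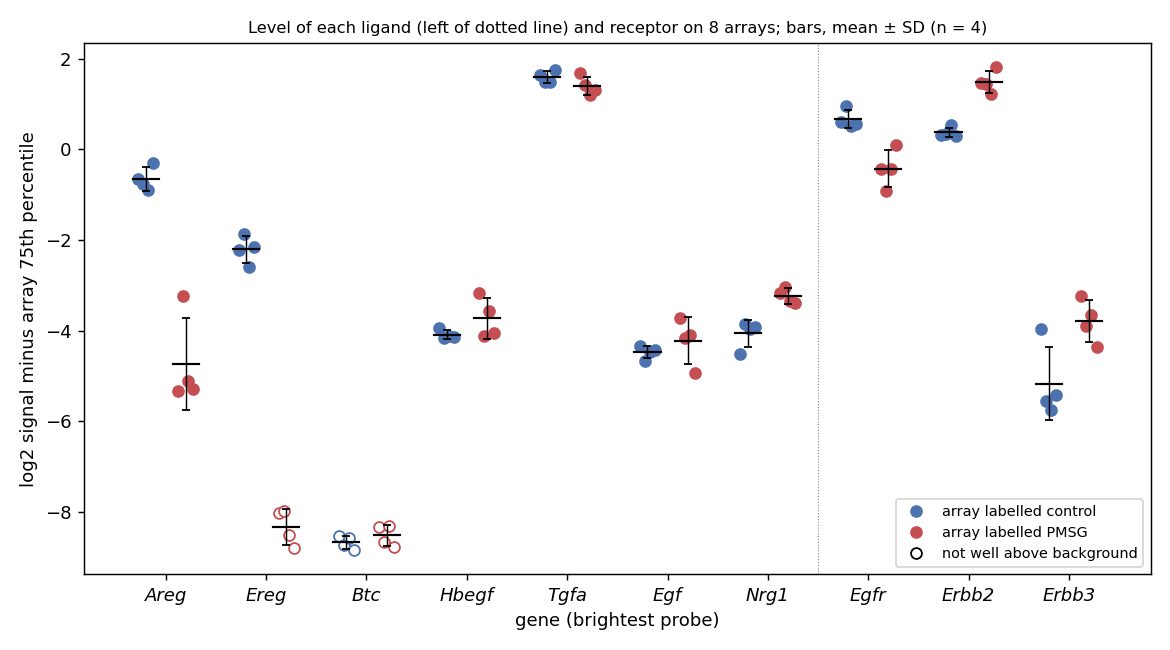
Level of each gene on each of the 8 arrays, as log2 signal minus the array's 75th percentile, with the mean and SD of each label. Open points are not well above background. Areg and Ereg are far lower in arrays labelled PMSG, Btc is open on every array, and Egfr and Erbb2 separate in opposite directions.

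Amphiregulin, encoded by Areg, is a main luteinising-hormone-induced EGF-like ligand of the follicle. Its level was -0.66, -0.77, -0.90 and -0.29 on control-labelled arrays 1 to 4. It was -5.33, -3.23, -5.11 and -5.29 on PMSG-labelled arrays 1 to 4. The groups were separated by more than 2 log2 units, and PMSG array 2 lay well above its fellows. Before scaling, the signals were 537.5 to 899.4 in control and 22.3 to 109.5 in PMSG, all well above background. The difference was -4.08 (SE 0.45, limma adjusted p = 4.49e-04, 4 of 4 arrays lower), a 16.9-fold lower signal. Only 17 of the 21922 genes had a difference as low or lower, Areg included. Because Areg is printed as 10 spots, the technical spread can be read directly, and the median SD between spots of an array was 0.09, against SDs between arrays of 0.26 in control and 1.01 in PMSG. Without PMSG array 2 the difference was -4.59. Normexp background correction, which adds an offset of 50 to every signal, gave -2.73, so the size of the fall depends on how dim signals are treated. The probe lies at chr14:18466438-18466497 (rn4), on the minus strand.

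Epiregulin, encoded by Ereg, is a close relative of amphiregulin that is induced alongside it. Its level was -2.23, -1.87, -2.59 and -2.14 on control-labelled arrays 1 to 4, well above background on each. None of the PMSG-labelled arrays reached that call (0 of 4). Their signals before scaling were 3.76, 4.04, 2.10 and 2.42 on arrays 1 to 4, against 166.6 to 288.2 in control. The gene is thus measured under 1 label only, and its fold is a bound. Ereg was at least 18.3-fold lower in arrays labelled PMSG (limma adjusted p = 1.16e-05, 4 of 4 arrays lower), taking for each dim array its lowest signal well above background. With normexp background correction the Ereg difference was -2.11 (limma adjusted p = 7.53e-06), smaller than this bound, so the bound holds only for the processed signals. The measured means were -2.21 ± 0.30 (SD, n = 4) in control and -8.34 ± 0.40 (SD, n = 4) in PMSG. The coordinates of the probe run from 18521343 to 18522341 on chromosome 14 (rn4), also on the minus strand.

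Betacellulin, encoded by Btc, is the third ligand of the set that luteinising hormone induces. Its signals before scaling lay between 2.398 and 2.795 in control and between 2.42 and 3.04 in PMSG. All 8 values were below the call for well above background, so this probe does not show whether Btc differed.

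Areg, Ereg and Btc lie close together on chromosome 14 in rn4, with 288.7 kb from the Btc probe to the Ereg probe. The window around them was widened by 500 kb on each side after these values had been seen. It held 19 other probes of 16 names, of which 15 were tested and 6 differed, 1 higher and 5 lower, against 34.2% of all probes. Epgn, which encodes the EGF-like ligand epigen and is the next named gene beside Ereg, had a difference of 1.19 (SE 0.59, limma adjusted p = 0.155) and did not pass. The median SD between its spots was 1.58, so this probe does not settle whether Epgn differed. Among the 5 lower probes were those of the chemokine genes Cxcl1 (-1.66, limma adjusted p = 2.01e-04) and Cxcl2 (-0.74, limma adjusted p = 0.0376). The other named ones were Parm1 at -0.87 and Mthfd2l at -0.61. None of the other tested probes in the window differed by as much as Areg.

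**Figure D2:**
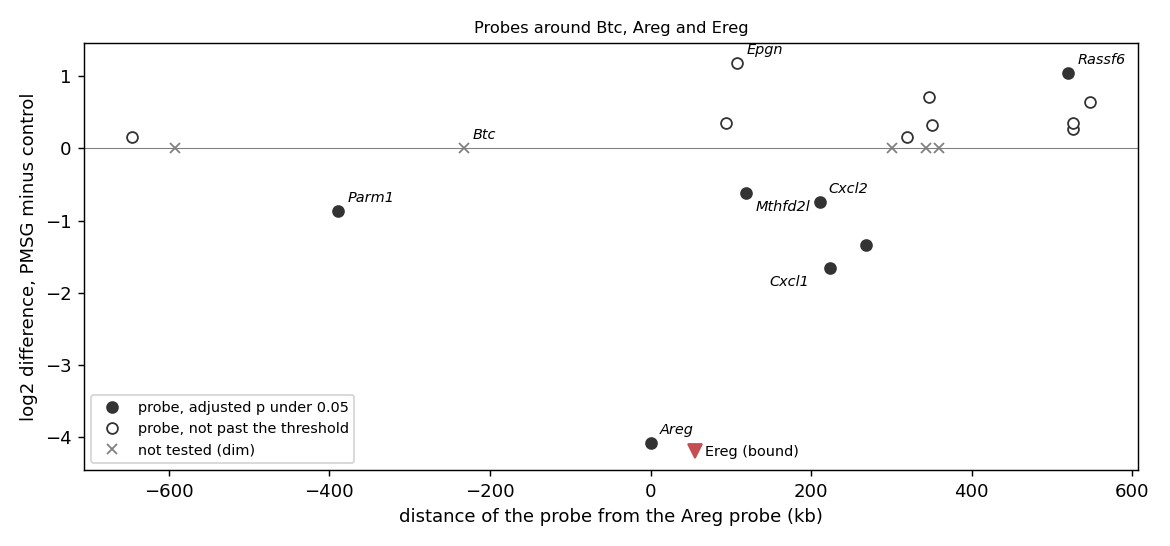
Log2 difference (PMSG minus control) of each probe against its distance in kb from the Areg probe. Ereg is drawn as a triangle at its bound of at least 18.3-fold lower, and crosses mark probes too dim to test. Areg stands at -4.08, and the remaining filled probes lie between -1.66 and 1.04.

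The sequence before the start of Areg is shown because the gene stands among the 17 lowest differences and because cAMP response elements are the sites bound by CREB proteins downstream of gonadotropin receptors. The 250 bases before the annotated start are those at chr14:17265642-17265891 of the minus strand in GRCr8, from RefSeq, and capitals mark a palindromic cAMP response element and a TATA box.

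Areg promoter: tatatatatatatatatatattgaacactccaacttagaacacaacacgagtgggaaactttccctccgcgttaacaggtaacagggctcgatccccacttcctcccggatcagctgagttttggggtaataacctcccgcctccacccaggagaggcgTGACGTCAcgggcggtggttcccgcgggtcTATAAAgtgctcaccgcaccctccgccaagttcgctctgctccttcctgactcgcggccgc

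Searched on both strands, the element TGACGTCA began 91 bases before the start of Areg. It was present in 1.59% of 33469 rat promoters of the same length. TATAAA began 61 bases before the start and occurred in 12.9% of these promoters. A match is a match of letters and not a measured site. The promoter table held 7 of the 10 members, and among the other 6, Btc, Hbegf, Tgfa, Egf, Egfr and Erbb2, these 250 bases held neither TGACGTCA nor TATAAA. The shorter TGACG, which overlaps TGACGTCA, was found in Areg and Hbegf and in 18.2% of all promoters.

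The ligands outside that trio moved little or the other way. Hbegf encodes heparin-binding EGF-like growth factor. Its levels ran from -4.17 to -3.94 in control and from -4.12 to -3.16 in PMSG, with PMSG arrays 2 and 4 inside the control range. The difference was 0.36 (SE 0.21, 95% interval -0.13 to 0.85, limma adjusted p = 0.216).

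Tgfa encodes transforming growth factor alpha, a ligand of the EGF receptor that theca cells are known to make. On its brighter probe the levels ran from 1.48 to 1.76 in control and from 1.21 to 1.68 in PMSG, and the groups overlapped. The difference was -0.19 (SE 0.13, 95% interval -0.49 to 0.11, limma adjusted p = 0.278). A second probe, which starts at base 443 of the same transcript where the brighter starts at 3952, gave 0.33 (SE 0.20, limma adjusted p = 0.222), so the sign is not settled between the probes.

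Egf, the founding ligand, was printed as 10 spots. It lay between -4.66 and -4.35 in control and between -4.94 and -3.71 in PMSG, where arrays 1 to 3 stood above all control arrays and array 4 below them. The difference was 0.26 (SE 0.24, 95% interval -0.30 to 0.81, limma adjusted p = 0.427), and without PMSG array 4 it was 0.49 and passed (limma adjusted p = 0.0257; the other alternatives gave 0.0703 to 0.882). A dimmer Egf probe, well above background on 4 control arrays and 1 PMSG array, gave -0.13 (SE 0.39, limma adjusted p = 0.807). Its signals before scaling overlapped between the labels, at 5.79 to 16.6 in control and 6.02 to 12.8 in PMSG.

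Nrg1 encodes neuregulin 1, which binds ErbB3 and ErbB4 rather than the EGF receptor. The levels were -4.51, -3.85, -3.96 and -3.93 in control and -3.17, -3.03, -3.35 and -3.40 in PMSG. All 4 PMSG arrays lay above all control arrays, and control array 1 lay below its fellows. The difference was 0.82 (SE 0.17, limma adjusted p = 0.00618), a 1.77-fold higher signal. It was smaller with normexp background correction (0.53, limma adjusted p = 0.00300) and with quantile normalization (0.62, limma adjusted p = 0.0361). Its probe is at chr16:64093933-64093992 (rn4).

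Egfr encodes the receptor that amphiregulin, epiregulin, betacellulin, transforming growth factor alpha and EGF share. Its levels were 0.61, 0.96, 0.51 and 0.57 in control and -0.43, -0.91, -0.44 and 0.09 in PMSG. The lowest control array stayed above the highest PMSG array, which was array 4. The difference was -1.09 (SE 0.21, 95% interval -1.57 to -0.61, limma adjusted p = 0.00500), a 2.12-fold lower signal. Across the array 12.0% of genes differed at least 2-fold with an adjusted p under 0.05, and 4.59% of genes had a difference as low or lower. Its probe lies at chr14:97788051-97788110 (rn4), on the same chromosome as Areg and Ereg but far from them.

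Erbb2 encodes a receptor with no known ligand of its own that pairs with the other ErbB receptors. On the brightest probe its levels were 0.32, 0.33, 0.53 and 0.31 in control and 1.46, 1.45, 1.23 and 1.81 in PMSG. The groups were well apart, and PMSG array 4 was the highest. The difference was 1.11 (SE 0.14, 95% interval 0.80 to 1.43, limma adjusted p = 6.35e-04), a 2.17-fold higher signal. Its levels on another probe were -2.69, -2.81, -2.43 and -2.82 in control and -1.57, -1.45, -1.59 and -1.06 in PMSG. That probe gave 1.27 (SE 0.15, limma adjusted p = 5.79e-04). The dim probe starts at base 2122 of the transcript, where the others start at 4289 and 4541. It was well above background on 1 of 8 arrays, PMSG array 2, and was not tested. The 2 tested Erbb2 probes thus gave the same direction and a similar size.

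Subtracting the Egfr level from the Erbb2 level within each array removes any constant offset of the array, but not the effect of quantile normalization or of background correction. This difference was -0.29, -0.63, 0.02 and -0.27 on control-labelled arrays 1 to 4 and 1.89, 2.36, 1.67 and 1.72 on PMSG-labelled arrays. The mean moved from -0.29 ± 0.27 (SD, n = 4) to 1.91 ± 0.31 (SD, n = 4), and the groups did not overlap. The shift of 2.20 is the sum of both differences given above and is a description, not a further test, of a pair set side by side with their opposite directions known. Because the probes differ, the sign of the difference within an array does not order the receptors.

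Erbb3 encodes a receptor with little kinase activity of its own that binds neuregulins and signals by pairing with ErbB2. Its levels were -3.97, -5.55, -5.74 and -5.43 in control and -3.24, -3.89, -3.66 and -4.35 in PMSG. The groups overlapped, because control array 1 lay above PMSG array 4. The difference was 1.39 (SE 0.41, 95% interval 0.45 to 2.32, limma adjusted p = 0.0309), a 2.62-fold higher signal. The 2 spots of the probe disagreed on PMSG arrays 1, 2 and 4, with SDs between spots of 0.52, 0.73 and 1.24. This limits the precision of the difference. Leaving out any of control arrays 2, 3 and 4 or PMSG arrays 1, 2 and 3 ended the call, with limma adjusted p-values from 0.0600 to 0.0810. Without control array 1 the difference was 1.79 (limma adjusted p = 0.00304). With normexp background correction it was 0.68 (limma adjusted p = 0.0192). Erbb3 is known in epithelia. Of the 7 epithelial markers 4 rose and none fell, where 18.0% of all genes were called higher. Epcam, Krt8 and Krt19 did not pass. The summed level of the markers ran from 18.3 to 24.6 in control and from 31.0 to 47.6 in PMSG. Krt18 had the highest mean of the 7 under both labels (3.78 and 4.46), so the sum follows it most. The part of these markers in the Erbb2, Erbb3 and Nrg1 results was not tested.

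**Figure D3:**
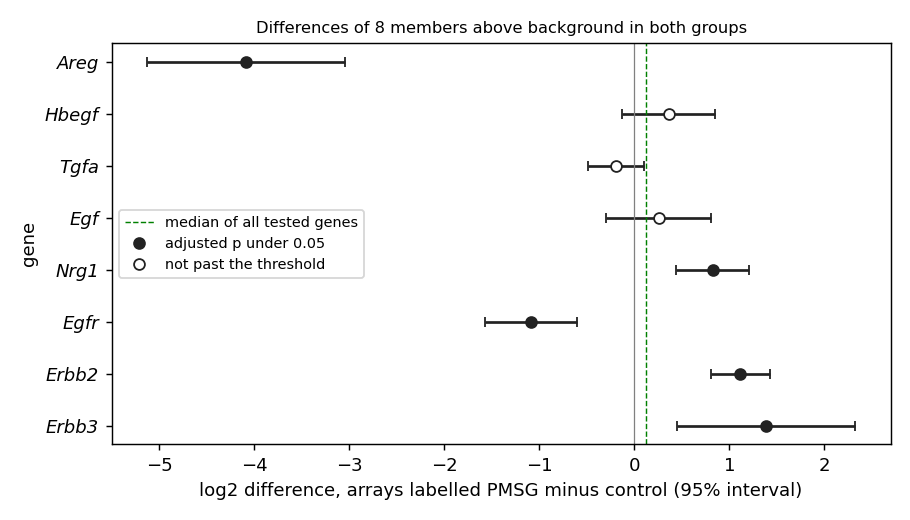
Log2 difference (PMSG minus control) with its 95% interval for the 8 genes above background on all arrays; filled points passed at an adjusted p under 0.05. Areg stands at -4.08, Egfr at -1.09, and Nrg1, Erbb2 and Erbb3 lie between 0.82 and 1.39, while the intervals of Hbegf, Tgfa and Egf include 0.

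Erbb4, the remaining receptor of the family, was well above background on 0 of 4 control and 2 of 4 PMSG arrays and was not tested. Of the other ligands, Nrg3 was above background on no array. Nrg2 (-0.08) and Nrg4 (0.30) did not pass. With Epgn, 0 of the 3 tested genes of this group were called by limma.

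The genes that work with these receptors were read from 6 lists by role. Of 82 listed genes 77 were tested, and 37 differed, 10 higher and 27 lower in arrays labelled PMSG, against 34.5% of all genes. Of all genes, 18.0% were called higher and 16.5% lower, the shares to set beside the counts of each list. The median difference of the listed genes was -0.19, beside 0.12 over all genes tested. Adam12 was not analysed here.

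The genes of ligand shedding, among them the protease inhibitor gene Timp3, included 11 tested genes, of which 1 rose and 3 fell (median -0.07). Adam17, the main sheddase of amphiregulin and epiregulin, was at -1.86 in control and -1.88 in PMSG, a difference of -0.02 (SE 0.17, limma adjusted p = 0.946). Adam8, a protease of leukocytes, rose by 1.66 (SE 0.27, limma adjusted p = 0.00239). Beside it, 4 of the 6 leukocyte markers rose and none fell, where 18.0% of all genes were called higher. Their summed levels were 7.37 to 9.10 in control and 11.53 to 13.12 in PMSG, and their part in the Adam8 result was not tested. The rhomboid protease gene Rhbdl2 fell by 1.32 (SE 0.23, limma adjusted p = 0.00329). For Adam19 the brighter probe fell by 0.64 (limma adjusted p = 0.00222) and the other rose by 0.97 (limma adjusted p = 0.0392), so the gene has no settled direction.

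Among 26 adaptors and kinases that carry the signal inward, 14 differed, 4 higher and 10 lower, with a median of -0.19. Of the 4 higher, Pik3ca (0.52) had other probes called lower, at -0.29 (limma adjusted p = 0.047) and -0.45 (limma adjusted p = 0.027). Sos2 (0.37) had another probe at -0.16 (limma adjusted p = 0.363). Among those that differed, the largest differences were those of Stat5b, a transcription factor (-1.37, SE 0.15, limma adjusted p = 3.85e-04), and of Map2k1, the kinase that activates ERK (-0.97, SE 0.12, limma adjusted p = 7.44e-04). Nras, a Ras protein gene, followed with -0.90 (SE 0.13, limma adjusted p = 0.00147). In each of these the 4 PMSG arrays lay below the 4 control arrays. Map2k1, for example, ran from 0.33 to 0.48 in control and from -0.78 to -0.32 in PMSG.

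Feedback inhibitors numbered 15 tested genes, 2 higher and 4 lower, with a median of -0.08. Dusp6, the ERK phosphatase that is itself induced by ERK, fell most. It stood at 3.31, 3.00, 3.31 and 3.72 in control and at 1.81, 1.85, 1.85 and 1.35 in PMSG, with no overlap, a difference of -1.62 (SE 0.18, limma adjusted p = 4.49e-04). Lrig1, which promotes breakdown of ErbB receptors, rose by 0.77 (SE 0.19, limma adjusted p = 0.0136). However, the SDs between its spots were 0.47, 0.99 and 0.76 on control arrays 2 to 4 and 0.67 on PMSG array 3. Its relative Lrig2 rose by 0.58 (SE 0.12, limma adjusted p = 0.00639), but quantile normalization (limma adjusted p = 0.0849) and median centring (0.0761) ended that call. So did averaging its probes (0.0535), since another Lrig2 probe was at -0.01.

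Genes that EGF-like ligands or ERK are known to induce had a median of -0.58, with 1 of 12 tested genes higher and 6 lower. Among all genes the shares called higher and lower were 18.0% and 16.5%, with a median of 0.12. Cebpb, a transcription factor of luteinisation, fell by 1.24 (SE 0.19, limma adjusted p = 0.00173), and Plaur, the urokinase receptor gene, by 1.14 (SE 0.26, limma adjusted p = 0.0101). The size for Plaur is not settled, since normexp background correction gave -0.47, its other probe -2.36 and the mean of its probes -1.75. Ptx3, a protein of the cumulus matrix, went the other way. Its levels were -0.48, 0.13, -0.31 and 0.62 in control and 2.51, 1.70, 0.72 and 1.21 in PMSG, a rise of 1.55 (SE 0.40, limma adjusted p = 0.0180). The genes for other parts of cumulus expansion were dim or did not pass. Ptgs2 was well above background on 1 of 8 arrays and was not tested. Has2 was well above background on all 4 control arrays but on 1 of 4 PMSG arrays, so its difference of -0.79 (limma adjusted p = 0.0779) rests mostly on dim PMSG signals. Tnfaip6 differed by -0.25 (limma adjusted p = 0.412).

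Signals upstream of the ligands had 2 genes higher and 4 lower among 10 tested, with a median of -0.18. Adcyap1, a neuropeptide gene induced in granulosa cells before ovulation, fell by 2.22 (SE 0.37, limma adjusted p = 0.00247), from signals before scaling of 73.85 to 186.4 in control to 16.06 to 28.57 in PMSG. With normexp background correction the Adcyap1 difference was -0.99 (limma adjusted p = 0.00533). Nr5a2, a nuclear receptor of granulosa cells, fell by 1.47 (SE 0.19, limma adjusted p = 7.70e-04), and Lhcgr was given above. Lhcgr stood at -1.36, -1.41, -1.92 and -1.06 in control and at -3.09, -3.43, -2.93 and -4.03 in PMSG, again without overlap.

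**Figure D4:**
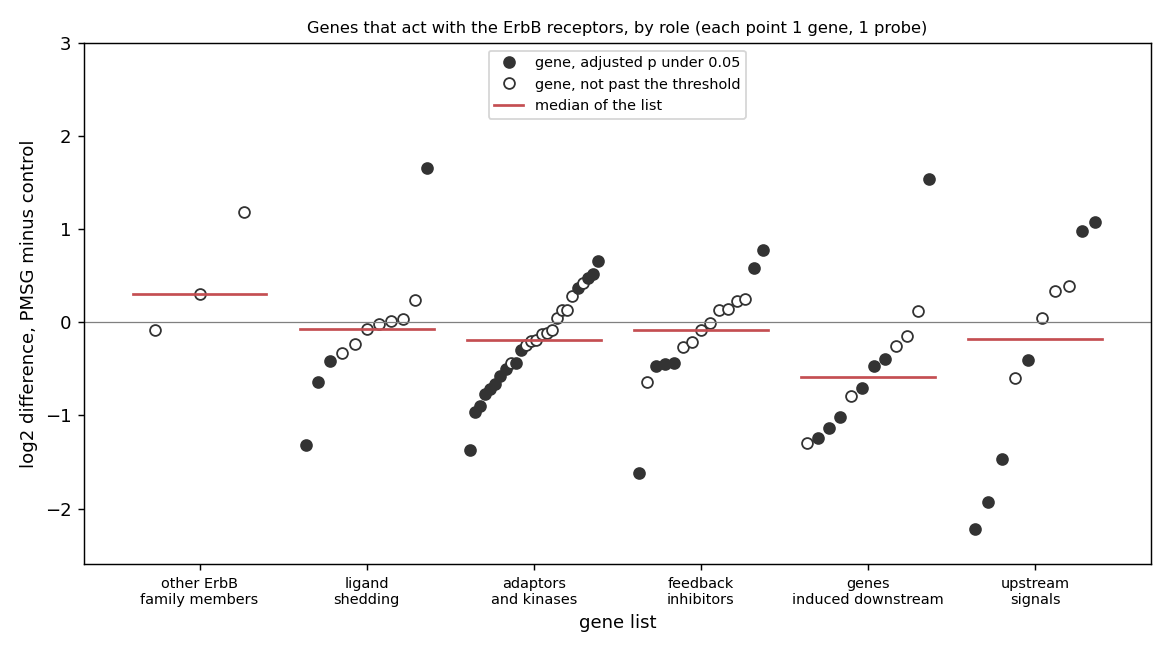
Log2 difference (PMSG minus control) of each tested gene in the 6 lists, with filled points for an adjusted p under 0.05 and a line at each list's median. The list of induced genes has the lowest median, -0.58, and single genes of most lists rise while others fall.

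Cell type markers moved with the labels as well. Beside the counts that follow, 18.0% of all genes were called higher and 16.5% lower. All 7 granulosa markers on the array were tested, 2 higher and 2 lower, and Cyp19a1 was not analysed here. Their summed level was 132.1 to 228.3 in control and 119.0 to 149.5 in PMSG. Of 4 theca markers 1 rose and 2 fell, with summed levels of 150.0 to 173.6 and 30.6 to 70.7. Insl3 rose by 2.60 (limma adjusted p = 3.47e-04), and Cyp17a1 did not pass (-0.22, limma adjusted p = 0.483). The 2 that fell were the steroidogenic genes Star and Cyp11a1. Cyp11a1 had the highest control mean of the 4, at 6.59, so the sum follows it most. All 8 oocyte markers rose, from 3.00 to 5.37 in control to 10.4 to 22.5 in PMSG. Endothelium had 1 of 7 higher and 4 lower (20.9 to 24.4 against 17.0 to 18.5). In stroma and smooth muscle 3 of 6 rose (89.2 to 116.8 against 97.6 to 132.6). Of the 4 adipocyte markers none passed (5.29 to 40.4 against 16.0 to 44.9), and of the 3 red blood cell markers 1 fell (4.796 to 13.79 against 2.12 to 3.57). The defining markers of granulosa cells, theca and oocytes were above background on all 8 arrays. The part of these shifts in the results for Areg, Ereg and Egfr was not tested.

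The pattern of Ereg over the 8 arrays was most like those of Mesdc1 (Pearson r = 0.998), Akr1c3 (0.997) and Heatr1 (0.997). Erbb3 was most like Tph1 (r = 0.986), a probe without a gene name (0.982) and the transcript ENSRNOT00000033201 (0.977). These are descriptions over 8 arrays that fall into 2 labelled groups and share the same scaling. For Ereg, 62 genes exceeded 0.99, and its 4 PMSG values were below background. Akr1c3 was well above background on only 1 of 4 PMSG arrays. The spots of Tph1 disagreed, with SDs between spots of 1.38 to 1.42 on control arrays 2 to 4.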

How the data were processed

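Per the file headers, the deposited intensity of each spot is the processed signal of Agilent Feature Extraction 11.5.1.1, with probe coordinates on rn4. Arrays were 1-colour and used 500 ng of RNA, per the labels' protocols. The authors also deposited log2 values, with column medians of -3.21 to -2.82. Set against the scanner files, these proved to be on the scale used here and not centred per gene. Outlier and control spots were left out, log2 processed signals were averaged per probe and scaled to the 75th percentile. An array counted as well above background for a probe if at least a fraction of 0.5 of the probe's remaining spots were flagged so. A probe was tested if this held on at least 4 of 8 arrays (25303 of 30350). The labels were compared by a moderated linear model without covariates (limma 3.58.1, R 4.3.3), tested on simulated data first, with p-values adjusted by Benjamini-Hochberg over the tested probes and a threshold of 0.05. No spot was saturated. The number of arrays limits the precision.

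For each gene the brightest probe was used. The members, lists and alternatives were chosen with earlier results of these data known. Named genes are the members, up to 3 called genes with the largest difference from each pathway list, the 3 patterns most like the ligand and the receptor with the largest difference, and genes named for their values or role, chosen after the values were seen. Same-numbered arrays share only a number: their deviations from the group means correlated at 0.04, 0.04, 0.18 and -0.02. Sequences of Areg and 6 other promoters are RefSeq's (GRCr8). The sequence of Hbegf is not shown. A further list of cell markers is not reported here.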

Additional observations from a re-analysis of the deposited data

Results flagged for a closer look

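Each gene's 4 levels under a label were searched for a single distant array, 62 such groups in all, and 4 held such an array. Chance gives about 1 in 20. Areg was higher on PMSG array 2, at -3.23 against -5.33 to -5.11 on the others (gap 0.897 of the range). Nrg1 was lower on control array 1, at -4.51 against -3.96 to -3.85 (gap 0.83). Erbb2 was higher on control array 3, at 0.53 against 0.31 to 0.33 (gap 0.894). Dusp6 was lower on PMSG array 4, at 1.35 against 1.81 to 1.85 (gap 0.918). None of these 4 genes lost its call when any array was left out.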

How the results depend on the processing

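Over 18 alternatives the number of members called stayed between 5 and 7, against 6, with 5 in 7 of them and 7 without PMSG array 4. Requiring all 8 arrays above background drops Ereg from the test. With the replicate block 6 members, 29 pathway genes and 7346 probes were called, against 6, 37 and 8658, and the block changed no call of a member or of a pathway gene named by the rule. It ended the call of ENSRNOT00000033201 (limma adjusted p = 0.0505), which was lost in 10 of 18 alternatives, with adjusted p-values up to 0.295. Leaving out 1 array gave 29 to 43 pathway genes and 6552 to 11382 probes. Averaging all probes of a gene reversed Tgfa (0.0695) and Adam19 (0.162). Areg, Ereg, Nrg1, Egfr and Erbb2 kept direction and call under every alternative in which they were tested. Median centring moved the median difference over all probes from 0.11 to -0.05, and the share of called probes that were higher from 51.4% to 34.5%. The dim signals of Areg and Ereg under the PMSG label limit the precision of their folds.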

Other observations

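Several pathway genes had probes that disagreed. Spry4, an inhibitor of Ras signalling, was at 0.13 on its brightest probe and at -1.28 on another (limma adjusted p = 0.00482). Pik3ca, a lipid kinase gene, had 5 tested probes between -0.45 and 0.52, with calls in both directions.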
